A study of Mus musculus with 4 samples.

Results

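The Gimap genes encode GTPases of the immunity-associated protein family, and 8 of them were examined here: Gimap1, Gimap3, Gimap4, Gimap5, Gimap6, Gimap7, Gimap8 and Gimap9. They were found by gene symbol in the deposited expression tables, which list them in upper case (GIMAP1, GIMAP3, GIMAP4, GIMAP5, GIMAP6, GIMAP7, GIMAP8, GIMAP9). Each row there is 1 locus, and the genes took 9 of 46799 rows, because Gimap3 has 2 rows at the same locus. The study compared PLZF+ with PLZF- γδ T cells of epididymal adipose tissue from male C57Bl/6 mice that carry the PLZF-GFP reporter and were 16 to 22 weeks old. γδ T cells are lymphocytes with an antigen receptor of γ and δ chains, and PLZF, encoded by Zbtb16, is a transcription factor of innate-like lymphocytes. Each subset has 2 libraries, made with SMART-seq2, which copies whole transcripts from few cells, and each library is a pool of cells from 10 mice. No other treatment is given, mice of both subsets carried the reporter, and the labels do not name the surface markers by which γδ T cells were gated. The table column of every library also carries the tag SFD, which the column names do not explain. Libraries are called by the codes of their table columns, A7 and B7 for PLZF+ cells and A6 and B6 for PLZF- cells.

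GIMAP proteins are small GTPases related to septins, expressed mainly in lymphocytes, and in mouse and rat several of them are needed for normal numbers of peripheral T cells. Members sit on different membranes, among them the endoplasmic reticulum, mitochondria, lysosomes and lipid droplets, and some bind or regulate one another. In αβ T cells the family is known to be switched on as thymocytes mature and to be high in resting cells.

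By the GENCODE M21 annotation of GRCm38 (mm10), the 8 genes lie side by side on chromosome 6 within 123.6 kb, from base 48647234 to base 48770851. Along the chromosome the order is Gimap8, Gimap9, Gimap4, Gimap6, Gimap7, Gimap1, Gimap5 and Gimap3. Of these, 6 are on the plus strand, and Gimap6 and Gimap3, the 2 others, are on the minus strand. All are annotated as protein coding. The antisense transcript Gimap1os overlaps Gimap1, and the readthrough gene Gm28053 spans Gimap7 and Gimap1 and ends inside Gimap5. Whether counting used the strand is not stated, so how well reads of Gimap1 and of its antisense partner were kept apart is not known.

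The 4 libraries held an estimated 744567 to 2035054 reads outside the ribosomal RNA precursor, with 1837488 and 2035054 in PLZF+ libraries, against 744567 and 981876 in PLZF- libraries. All 8 rows that carry the Zbtb16 symbol were higher in PLZF+ cells, by 1.92 to 3.19 on the log2 scale (limma, adjusted p of at most 0.0334), which matches the labels of the sort. Genes that mark other cell types differed between the subsets. The summed normalized count of 11 rows for 10 markers of NK cells and innate lymphoid cells was 227 in A7 and 148 in B7 of PLZF+ cells, against 5154 in A6 and 4544 in B6 of PLZF- cells. The sum of 7 rows for markers of plasmacytoid dendritic and myeloid cells was 71.8 in A7 and 9.5 in B7, against 801 in A6 and 482 in B6. These are bulk libraries, in which fewer cells of a type and less RNA per cell cannot be told apart.

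Several Gimap transcripts were less abundant in PLZF+ than in PLZF- cells. Gimap7, Gimap6, Gimap4 and Gimap8 were lower, with mean normalized counts 17.4-fold, 4.08-fold, 3.79-fold and 1.79-fold below those of PLZF- cells. The summed normalized count of the family was 3232 in A7 and 3303 in B7, against 7372 in A6 and 5894 in B6. Its mean was 3268 ± 49.9 in PLZF+ cells and 6633 ± 1045 in PLZF- cells (SD, n = 2 each), a log2 ratio of -1.02. The sum is given as a value without a test, and an exact two-sided permutation test of 2 libraries against 2 could not go below p = 0.333. As a share of all normalized counts outside ribosomal RNA, the family took 0.284% and 0.291% in PLZF+ libraries, against 0.587% and 0.492% in PLZF- libraries.

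Each row was tested in a fit over all 9501 rows that averaged 10 or more normalized counts (limma on log2(normalized count + 1), Benjamini-Hochberg adjustment over all of them, threshold 0.05). All 9 Gimap rows were tested, 4 were lower in PLZF+ cells, and 5 did not pass. Gimap7 and the second Gimap3 row averaged under 10 in PLZF+ cells, so they met this minimum through PLZF- cells. Over all rows tested, 4.98% were called lower and 2.55% were called higher, and in the authors' deposited table calls of lower made up 3.91% and calls of higher 1.82%. The authors' deposited table did not test the second Gimap3 row. None of the 9 Gimap rows was called higher by limma, by voom (limma's method for counts) on estimated reads or in that table. None was higher at an unadjusted p under 0.05 with any of the 3. At that unadjusted p, 7 rows were lower by limma, 7 by voom and 6 in the authors' deposited table. The share of all rows at that unadjusted p was not worked out, and the shares above are of adjusted calls. These counts therefore have no background to be read against. The median log2 fold change of the 9 rows was -1.22, against -0.03 for all rows. In all 9 rows the log2 fold change was below 0, as in 51.6% of all rows tested. In 8 of the 9 both PLZF+ libraries lay below both PLZF- libraries, as in 27.3% of all rows tested, while no Gimap row had both PLZF+ libraries above both PLZF- libraries, as 24% of all rows did.

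**Figure D1:**
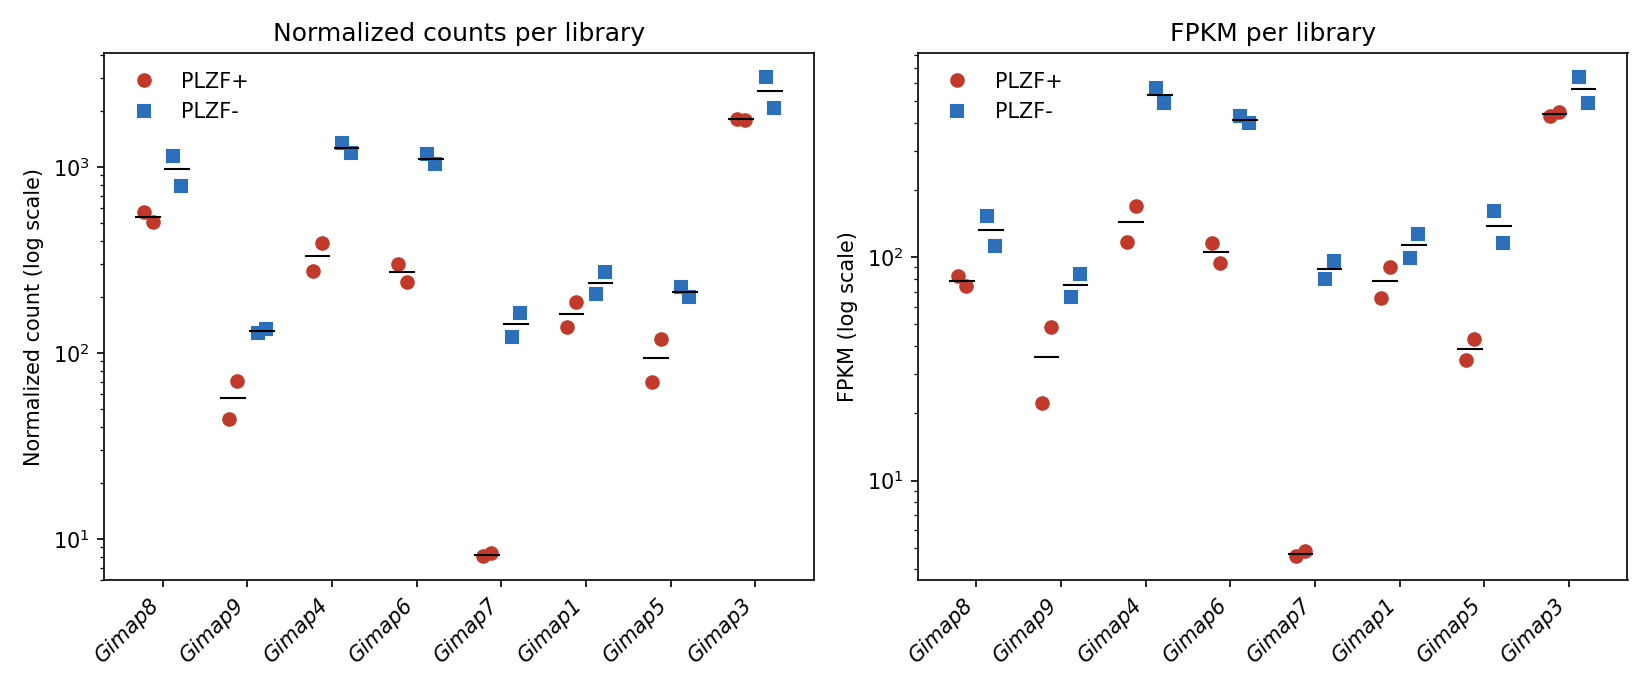
Expression of the 8 Gimap genes in each library, in chromosomal order, as normalized counts (left) and as FPKM (right) on log axes, with PLZF+ libraries as circles, PLZF- libraries as squares, and each subset's mean as a bar. Every gene has both circles below both squares, with the widest gap at Gimap7 (normalized counts of 8.05 and 8.37 in PLZF+ libraries, 121 and 165 in PLZF- libraries).

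Gimap7, Gimap6 and Gimap4 gave the largest differences. For that reason alone, the 250 bases before their RefSeq gene starts on GRCm38.p6 are printed. Matches to GGAAGT, an ETS core motif, and to TGTGGT, a RUNX core motif, are in capitals. Both strands were searched (ACTTCC and ACCACA are the motifs read on the other strand).
Gimap7 promoter, chr6:48718371-48718620, plus strand: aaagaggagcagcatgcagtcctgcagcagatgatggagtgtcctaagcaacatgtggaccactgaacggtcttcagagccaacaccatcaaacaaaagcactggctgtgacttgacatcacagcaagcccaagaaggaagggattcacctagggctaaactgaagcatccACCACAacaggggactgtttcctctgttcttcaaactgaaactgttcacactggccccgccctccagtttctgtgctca
Gimap6 promoter, chr6:48708245-48708494, minus strand: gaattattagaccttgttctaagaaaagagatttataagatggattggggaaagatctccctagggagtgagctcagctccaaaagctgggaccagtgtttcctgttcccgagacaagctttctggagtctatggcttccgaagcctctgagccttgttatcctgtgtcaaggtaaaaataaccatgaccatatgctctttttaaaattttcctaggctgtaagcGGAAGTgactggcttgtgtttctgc
Gimap4 promoter, chr6:48684328-48684577, plus strand: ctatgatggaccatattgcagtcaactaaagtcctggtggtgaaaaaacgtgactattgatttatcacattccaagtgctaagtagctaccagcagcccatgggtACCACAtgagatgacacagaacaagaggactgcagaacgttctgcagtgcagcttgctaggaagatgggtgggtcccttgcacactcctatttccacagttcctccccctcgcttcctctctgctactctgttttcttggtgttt
The Gimap7 stretch holds 1 RUNX match that begins 79 bases before the start, the Gimap4 stretch holds 1 RUNX match 145 bases before it, and the Gimap6 stretch holds 1 ETS match 25 bases before it. Among the other members, Gimap1 has 1 RUNX match and Gimap5 has 2 ETS matches, while the windows of Gimap3, Gimap8 and Gimap9 hold neither set of letters. No window holds both motifs, so matches of one do not overlap matches of the other. All 8 genes were found in the RefSeq table. Of 27025 promoters in it, 20.0% hold GGAAGT and 14.2% hold TGTGGT in the same window, so a single match is common.

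Gimap7 (chr6:48718621-48724636) encodes a GTPase whose human counterpart is known to form dimers that hydrolyse GTP and to stimulate the activity of GIMAP2. Its normalized count was 8.05 in A7 and 8.37 in B7 of PLZF+ cells, against 121 in A6 and 165 in B6 of PLZF- cells. These values stand for an estimated 13 and 15 reads in PLZF+ libraries, against 72 and 135 reads in PLZF- libraries, although the PLZF+ libraries were the deeper ones. The subsets did not overlap, and the 2 PLZF+ libraries differed by less than 1 read's worth of normalized count. On the log2 scale the fold change was -3.95 ± 0.54 (SE, 95% interval -5.12 to -2.78, adjusted p = 0.00059, limma). Of all tested rows, 2.26% had a lower log2 fold change. The pseudocount of 1 shrinks this value, since the PLZF+ level is low.

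Gimap6 (chr6:48701582-48708225, minus strand) is known to bind the ATG8 family protein GABARAPL2 and to take part in autophagy. Its normalized count was 299.8 in A7 and 242 in B7 of PLZF+ cells, against 1170.8 in A6 and 1038 in B6 of PLZF- cells. Both PLZF+ libraries were low, and the subsets lay far apart. The log2 fold change was -2.03 ± 0.21 (SE, 95% interval -2.50 to -1.56, adjusted p = 8.2e-05, limma).

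Gimap4 (chr6:48684549-48692060) has been linked in mouse to the death of T cells after loss of survival signals. Its normalized count was 276 in A7 and 390.1 in B7 of PLZF+ cells, against 1338 in A6 and 1185 in B6 of PLZF- cells. The log2 fold change of -1.94 ± 0.22 was close to that of Gimap6, with overlapping 95% intervals (-2.42 to -1.46, adjusted p = 0.000145, limma). The authors' deposited table also calls these 3 genes, with q-values of 0.00191 for Gimap4 and Gimap6 and 0.00714 for Gimap7. The calls of all 3 held whichever library was left out, with adjusted p-values of at most 0.0341 for Gimap7, 0.0189 for Gimap6 and 0.0287 for Gimap4. Those of Gimap6 and Gimap4 did not hold without the mean trend and robust moderation of the fit (adjusted p = 0.0848 and 0.108).

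Gimap5 and Gimap3 are the pair most alike in sequence. Gimap5 (chr6:48746197-48754210) encodes a lysosomal GTPase, and rats and mice that lack it lose most peripheral T cells. Gimap3 (chr6:48764464-48770851, minus strand) is tied in mouse to mitochondria and to the segregation of mitochondrial DNA. Their coding sequences were 90.4% identical over 895 aligned bases, against 55.8% to 73.9% for the other 27 pairs of members. The longest stretch shared by both transcripts has 140 bases, all of it coding, against at most 17 bases for any other pair. It is printed once, since both genes carry it letter for letter.
Gimap5, chr6:48752684-48752823, plus strand, and Gimap3, chr6:48765681-48765820, minus strand: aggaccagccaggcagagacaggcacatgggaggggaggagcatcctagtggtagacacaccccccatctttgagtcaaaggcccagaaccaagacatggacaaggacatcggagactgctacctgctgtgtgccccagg
A read inside this stretch fits both genes, and how the authors' tools shared such reads out is not given in the sources used here. Values of both genes are therefore uncertain.

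Gimap5 had a normalized count of 69.4 in A7 and 118 in B7 of PLZF+ cells, against 226 in A6 and 199 in B6 of PLZF- cells. Its log2 fold change was -1.22 ± 0.35 (SE, 95% interval -1.97 to -0.46), and the subsets did not overlap, but the adjusted p of 0.0541 missed the threshold (limma). With the letter of the column code (A or B, whose meaning is not given) as a second term it passed (limma, adjusted p = 0.0054). It also passed by voom (adjusted p = 0.0216). The column-letter fit leaves little to measure the spread of a single row, so its p-values rest mostly on other rows. This limit holds wherever that fit is cited below. The result for this gene also depended on the deposited unit. In FPKM, which divides by the transcript length that the authors' tool assigned in each library, Gimap5 had 34.6 and 43.2 in PLZF+ libraries, against 160.0 and 116 in PLZF- libraries. On log2(FPKM + 0.1) its log2 fold change was -1.81 with an adjusted p of 0.0214 (limma). The ratio of normalized count to FPKM was 2.0 and 2.74 for Gimap5 in PLZF+ libraries, against 1.41 and 1.71 in PLZF- libraries, whereas for Gimap4 it lay between 2.29 and 2.42 in all 4.

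Gimap3 was the most abundant member by normalized count, and by FPKM it overlapped with Gimap4 in PLZF- cells. Its main row had a normalized count of 1808 in A7 and 1781 in B7 of PLZF+ cells, against 3037 in A6 and 2078 in B6 of PLZF- cells. The spread between the PLZF- libraries was larger than the gap between B6 and either PLZF+ library. For this row the log2 fold change was -0.49 ± 0.19 (SE, 95% interval -0.89 to -0.08), and it did not pass (adjusted p = 0.164, limma). Without PLZF- library B6 it was -0.76 and passed (adjusted p = 0.0391), and without A6 it was -0.21 (adjusted p = 0.484). It also passed with the column letter as a term (adjusted p = 0.0199). The second Gimap3 row, at the same locus, had 18.9 in A7 and about 0 in B7, against about 0 in A6 and 37.0 in B6. It overlapped between the subsets (adjusted p = 0.929), and it held at most 31 reads in any library.

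Gimap8 (chr6:48647234-48660875) encodes the longest member, with a coding sequence of 2064 bases, against 873 to 984 bases for the others. Its normalized count was 571 in A7 and 507 in B7 of PLZF+ cells, against 1145 in A6 and 788 in B6 of PLZF- cells. The log2 fold change was -0.82 ± 0.22 (SE, 95% interval -1.30 to -0.34), just past the threshold (adjusted p = 0.0412, limma). This call was lost without A7 (adjusted p = 0.299), without B7 (0.441) and without A6 (0.23, log2 fold change -0.55), and it was not made in the authors' deposited table (q = 0.148).

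Gimap1 (chr6:48739054-48743795) encodes an endoplasmic reticulum GTPase that mature T and B cells of the mouse need to survive. It had a normalized count of 138 in A7 and 187 in B7 of PLZF+ cells, against 206 in A6 and 271 in B6 of PLZF- cells. The log2 fold change was -0.55 ± 0.30 (SE), its 95% interval of -1.20 to 0.09 included 0, and it did not pass (adjusted p = 0.328, limma). A separate row, GM3345, shares the deposited locus of Gimap1. That locus starts at base 48738346, as the annotated Gimap1os does, but whether GM3345 stands for Gimap1os is not given. The GM3345 row had 64.4 and 78.1 in PLZF+ libraries, against 142 and 111 in PLZF- libraries. Its log2 fold change of -0.81 did not pass either (adjusted p = 0.236, limma).

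Gimap9 (chr6:48676129-48679114) had a normalized count of 44.0 in A7 and 70.3 in B7 of PLZF+ cells, against 128 in A6 and 134 in B6 of PLZF- cells. The PLZF- libraries lay close together and the PLZF+ libraries did not. The log2 fold change of -1.22 ± 0.40 (SE, 95% interval -2.08 to -0.36) had an adjusted p of 0.0919 (limma), and passed with the column letter as a term (adjusted p = 0.031). It was the same size as that of Gimap5 to 2 decimals, with a wider error.

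Per transcript length, the members fell in a different order of means in each subset, though several neighbours overlapped. The place of Gimap5 also rests on its ratio of normalized count to FPKM, which differed between the subsets. In PLZF+ cells the mean FPKM was 438 for Gimap3, 143 for Gimap4, 105 for Gimap6, 78.6 for Gimap8, 77.8 for Gimap1, 38.9 for Gimap5, 35.5 for Gimap9 and 4.71 for Gimap7. Of the neighbours in that order, Gimap8 and Gimap1 overlapped between libraries, and so did Gimap5 and Gimap9. In PLZF- cells the mean FPKM was 564 for Gimap3, 532 for Gimap4, 413 for Gimap6, 138 for Gimap5, 132 for Gimap8, 113 for Gimap1, 88.2 for Gimap7 and 75.1 for Gimap9. There Gimap3 and Gimap4 overlapped, Gimap8 overlapped with Gimap5 and with Gimap1, and Gimap7 overlapped with Gimap9. Gimap7 was thus last by a clear gap in PLZF+ cells and level with Gimap9 in PLZF- cells. Among the tested rows of the whole table, 1.63% had a higher mean FPKM than Gimap4 and 14.9% had a higher one than Gimap7.

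The make-up of the family differed along with its total. The main Gimap3 row made up 49.0% and 46.0% of the summed Gimap FPKM in PLZF+ libraries, against 29.1% and 25.5% in PLZF- libraries. Gimap4 made up 13.3% and 17.5% in PLZF+ libraries, against 26.1% and 25.6% in PLZF- libraries. Gimap6 made up 13.3% and 9.65% in PLZF+ libraries, against 19.5% and 20.7% in PLZF- libraries. None of these 3 shares overlapped between the subsets. The share of Gimap7 was 0.523% and 0.498% in PLZF+ libraries, against 3.64% and 5.03% in PLZF- libraries. The shares of Gimap9, at 2.55% and 5.02% in PLZF+ libraries, against 3.0% and 4.39% in PLZF- libraries, did overlap. No share was tested, and shares within 1 library sum to a fixed total.

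**Figure D2:**
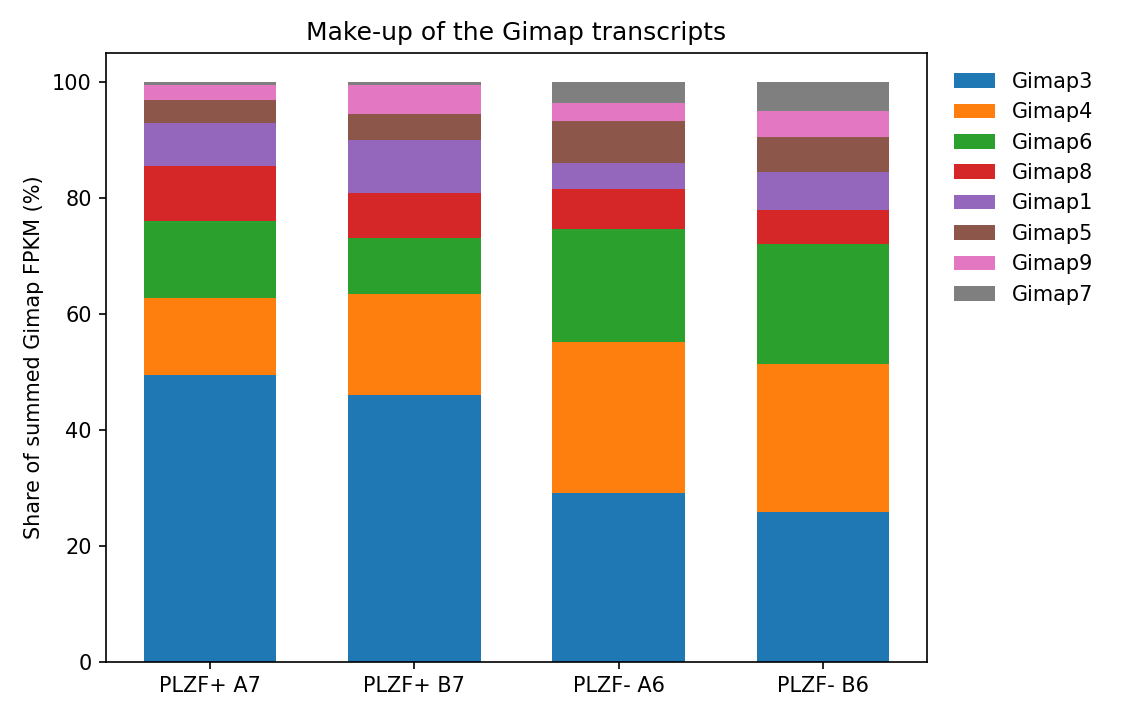
Share of each Gimap gene in the summed Gimap FPKM of each library, in percent, with both Gimap3 rows added together. Gimap3 takes the lowest block in all 4 bars, and it takes a larger part in the PLZF+ bars than in the PLZF- bars, where the blocks of Gimap4 and Gimap6 are taller.

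Along the chromosome, the 3 members with the largest differences, Gimap4, Gimap6 and Gimap7, are consecutive genes. Genes beside the cluster on either side formed a list of 11 symbols. Of their 11 rows, 6 were tested, 2 were higher in PLZF+ cells and 4 did not pass. Over all rows tested, 2.55% were called higher. The median log2 fold change of the list was 0.42, partly set by the minimum for testing. Repin1 met that minimum through PLZF- cells and Zfp862-ps through PLZF+ cells, each averaging under 10 in the other subset. The 2 called higher are Tmem176b and Tmem176a, which encode related membrane proteins of intracellular vesicles. The annotated Tmem176b gene lies 63.0 kb beyond Gimap3. It had a normalized count of 2120.1 in A7 and 2352 in B7 of PLZF+ cells, against 457 in A6 and 744 in B6 of PLZF- cells (a log2 fold change of 1.93 ± 0.22 SE, adjusted p = 0.000155, limma). Tmem176a had 1577 and 1658 in PLZF+ libraries, against 216 and 478 in PLZF- libraries (a log2 change of 2.33 ± 0.31 SE, adjusted p = 0.000772, limma). On the other side, AI854703 shares the deposited locus of Gimap8 and had a log2 fold change of 0.59 with an adjusted p of 0.67.

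**Figure D3:**
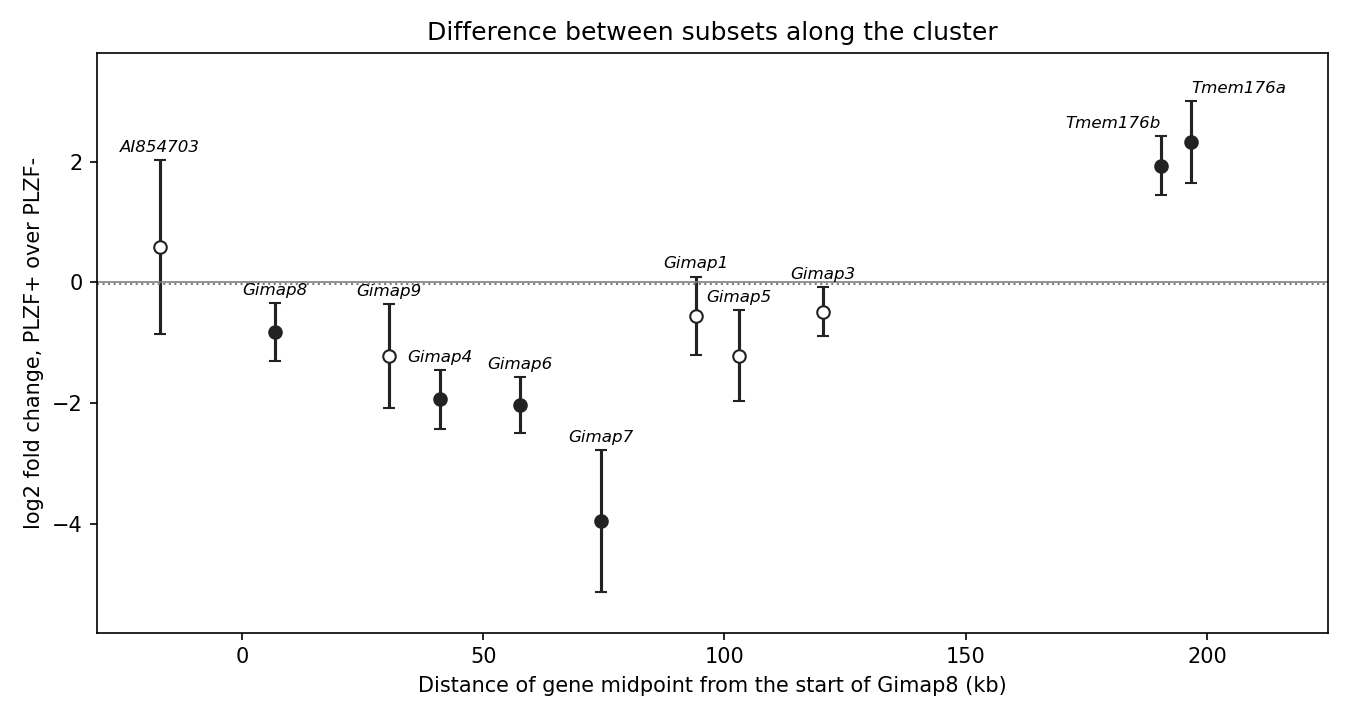
Log2 fold change of PLZF+ over PLZF- cells with its 95% interval (limma) against the distance of each gene's midpoint from the start of Gimap8 in kb, filled where the adjusted p is under 0.05, with a dotted line at the median of all rows. The Gimap genes lie below 0, with Gimap7 lowest at -3.95, and Tmem176b and Tmem176a lie above 0 at 1.93 and 2.33.

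Genes of pathways in which GIMAP proteins are known to act were read from lists. Over all rows tested, 4.98% were called lower and 2.55% higher, the background for the counts of each list below. Lists with few calls are too short to be set apart from those shares. Of 13 tested rows of the survival list, which holds the IL-7 receptor, the BCL2 family, GSK3 and β-catenin, 2 were lower, none was higher and 11 did not pass, with a median log2 fold change of -0.26. Bcl2l11, which encodes the pro-apoptotic protein BIM, had 99.1 in A7 and 93.8 in B7 of PLZF+ cells, against 646 in A6 and 631 in B6 of PLZF- cells (log2 fold change -2.71, adjusted p = 3.8e-05, limma). Ctnnb1, encoding β-catenin, was also lower (log2 fold change -1.82, adjusted p = 0.0044), but the call was lost without A7 (0.0777), without B7 (0.0678) and without B6 (0.0634). Il7r, which encodes the IL-7 receptor α chain, had 1626 and 1957 in PLZF+ libraries, against 1156 and 1277 in PLZF- libraries, and missed the threshold at a log2 fold change of 0.55 (adjusted p = 0.081). Bcl2a1b had a log2 fold change of 1.33 and did not pass (adjusted p = 0.0632). Both passed with the column letter as a term (adjusted p = 0.0129 for Il7r and 0.0213 for Bcl2a1b).

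Of 8 tested rows of the autophagy list, 1 was lower and 7 did not pass, and the median log2 fold change was 0.24. The 1 was Sqstm1, encoding the autophagy receptor p62 (log2 fold change -0.93, adjusted p = 0.0177, limma), and each omission of a library ended its call (adjusted p = 0.162 without A7, 0.328 without B7, 0.0707 without A6 and 0.0928 without B6). Gabarapl2, the gene of the known Gimap6 partner, had 85.5 in A7 and 116 in B7 of PLZF+ cells, against 106 in A6 and 109 in B6 of PLZF- cells. Its subsets overlapped (adjusted p = 0.9, limma), unlike those of Gimap6.

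Of 17 tested rows of the list of quiescence and naive T cell genes, 6 were lower, none was higher and 11 did not pass. Their median log2 fold change was -1.48. Both rows of Klf3 were among the 6 (adjusted p = 0.0189 and 0.0283, limma), so the calls cover fewer genes than rows. Satb1, a chromatin organizer of T cells, had 97.9 and 138 in PLZF+ libraries, against 656 and 491 in PLZF- libraries, a log2 difference of -2.28 (adjusted p = 0.000271, limma). The row that holds Bach2, a transcriptional repressor that restrains effector genes, gave a log2 fold change of -2.76 (adjusted p = 0.000595). Lef1, a transcription factor of the WNT pathway, had -2.33 (adjusted p = 0.00867), with its call lost without A7 (0.125), without A6 (0.114) and without B6 (0.0963). Btg2, an antiproliferative gene, has 2 rows, of which 1 was lower (log2 fold change -0.93, adjusted p = 0.00941, limma) and the other did not pass (adjusted p = 0.0563). The call of the first was lost without A7 (0.111), without B7 (0.271) and without A6 (0.0958), and stood at the threshold without B6. Foxo1, Foxp1, Slfn2 and Tcf7 did not pass. Klf2, which did not pass either, averaged under 10 in PLZF+ cells and met the minimum for testing through PLZF- cells.

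Of 14 tested rows of transcription factors reported to act on lymphocyte genes of this kind, 1 was lower and 13 did not pass, and the median log2 fold change was -0.12. The 1 was the row that holds Gata3, with a log2 fold change of -2.82 (adjusted p = 2.2e-05, limma), which also stands in the list of NK and innate lymphoid markers. Ets1 had a normalized count of 1395 and 1128 in PLZF+ libraries, against 1653 and 1807 in PLZF- libraries, with a log2 fold change of -0.46 that did not pass (adjusted p = 0.155). Ikzf1, at -0.69, and Bcl11b, at 0.82, did not pass either (adjusted p = 0.13 and 0.138). Of the 5 tested Runx rows, 4 for Runx1 and 1 for Runx3, none passed.

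Interferon-inducible GTPases are another family of immune GTPases. Of their 15 tested rows, 1 was higher, 2 were lower and 12 did not pass, and the median log2 fold change was -0.75. Gbp3, Mx1 and the row of Gm4070 and Gvin1 averaged under 10 in PLZF+ cells and met the minimum for testing through PLZF- cells. The median is thus partly set by that minimum and does not show that the family is lower. The row of Gbp10 and Gbp6 was higher (log2 fold change 2.26, adjusted p = 0.00779, limma), and Gbp9 (-1.54, adjusted p = 0.00656) and Gvin1 (-2.45, adjusted p = 0.0137) were lower. The call of the Gbp10 and Gbp6 row was lost without A7 (0.152), without B7 (0.218) and without B6 (0.05), that of Gbp9 without any 1 library (0.0565 to 0.125), and that of Gvin1 without A7, B7 or A6 (0.111 to 0.158). Members of this family share long near-identical stretches, and their values are uncertain.

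Cell type markers also differed between the subsets. All 4 CD3 chain genes were higher in PLZF+ cells, with a median log2 fold change of 1.36 and a summed normalized count of 2371 in A7 and 2592 in B7 of PLZF+ cells, against 762 in A6 and 1197 in B6 of PLZF- cells. Their calls were lost without A7 for Cd3g (adjusted p = 0.118), Cd3e (0.235) and Cd3d (0.278), and without B7 for all 4 (0.0961 to 0.392). Without A6 they were lost for Cd3e (0.173) and Cd3d (0.145), and without B6 for Cd3d (0.0537). The receptor constant genes of γδ and αβ T cells were not analysed here. The αβ T cell co-receptors and Foxp3 were near 0, with sums of 1.2 and 0 in PLZF+ libraries, against 27.0 and 23.2 in PLZF- libraries.

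All 9 tested rows of NK and innate lymphoid markers were lower in PLZF+ cells, with a median log2 fold change of -6.15. Of these, Ncr1, Nkg7, Klrd1 and Klre1 averaged under 10 in PLZF+ cells and met the minimum for testing through PLZF- cells, as did Siglech and Itgax in the next list, so the counts and medians of both lists are partly set by that minimum. Ncr1, the activating receptor NKp46, had 3.72 in A7 and 3.91 in B7 of PLZF+ cells, against 693 in A6 and 694 in B6 of PLZF- cells. All 4 tested rows of plasmacytoid dendritic and myeloid markers were lower too, with a median log2 fold change of -4.60, among them Siglech, at 0 in both PLZF+ libraries and at 145 and 90.2 in PLZF- libraries. Each of these 4 calls was lost without A6 (adjusted p = 0.128 to 0.234) and without B6 (0.0651 to 0.0908), and those of Itgax (0.0602) and Cd74 (0.0872) also without B7. In the B cell list Cd79b had 33.4 and 29.6 in PLZF+ libraries, against 1.69 and 7.32 in PLZF- libraries, and did not pass (adjusted p = 0.131), while Ms4a1, Cd79a, Cd22 and Pax5 were at 0 in all 4. Markers of adipocytes and stroma summed to at most 5.1 in any library, and the endothelial genes Tek and Emcn were at 0. The endothelial list summed to 162 and 157 in PLZF+ libraries, against 113 and 122 in PLZF- libraries, nearly all of it from Pecam1, whose 2 tested rows did not pass. The part of NK, innate lymphoid and dendritic cell RNA in the Gimap differences was not tested.

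**Figure D4:**
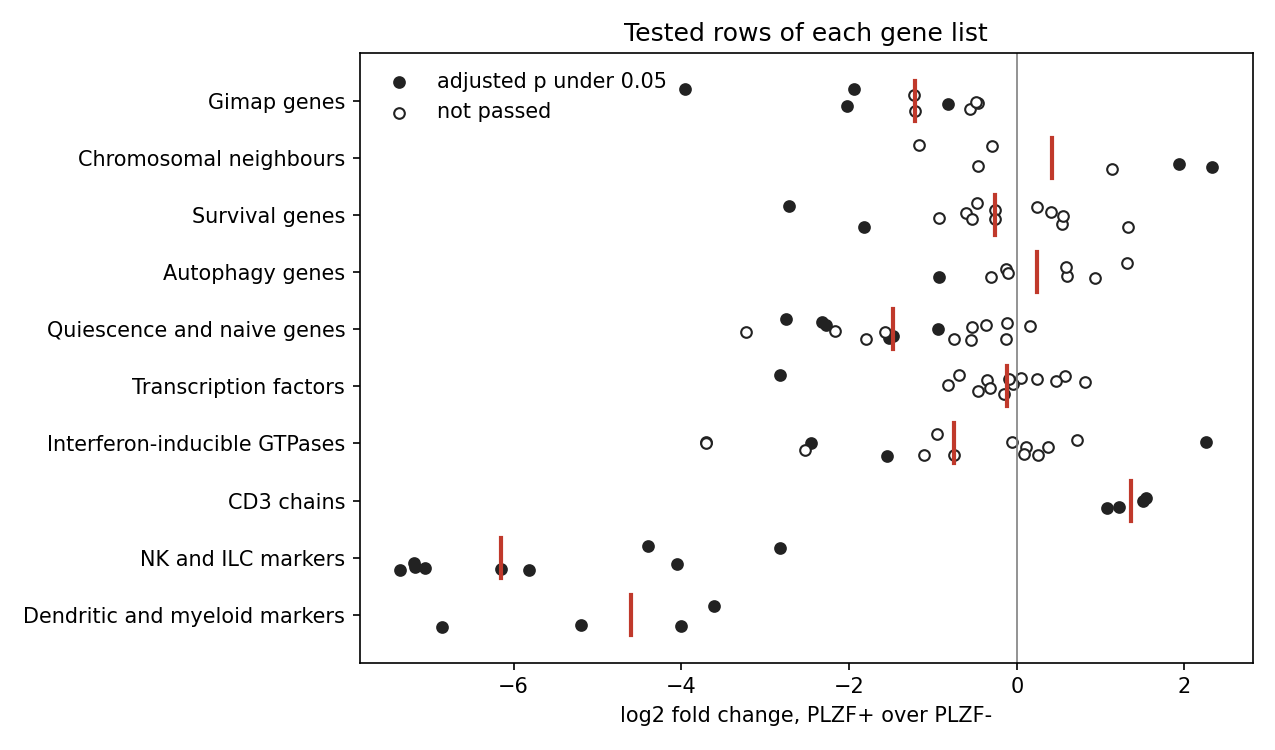
Log2 fold change of PLZF+ over PLZF- cells for every tested row of each gene list, filled where the adjusted p is under 0.05 (limma), with the list's median as a vertical bar. All 9 Gimap rows lie below 0 with a median of -1.22, the 4 CD3 rows lie above 0, and the NK and innate lymphoid rows lie far below, at a median of -6.15; values of genes at 0 in PLZF+ libraries, such as Siglech, rest on the pseudocount.

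The 5 named rows outside the family whose pattern over the 4 libraries was nearest to that of the summed Gimap count were Baiap2, Jak1, Ttc39b, Tgfbrap1 and Rbbp8, with Euclidean distances of 0.0193, 0.0614, 0.0764, 0.0764 and 0.0915 on centred log2 values. Jak1, a kinase of cytokine receptors that include the IL-7 receptor, had a normalized count of 747 and 754 in PLZF+ libraries, against 1647 and 1396 in PLZF- libraries. Ttc39b had 194 and 199 in PLZF+ libraries, against 417 and 349 in PLZF- libraries. These rows were chosen for a pattern that is itself lower in PLZF+ cells, so their differences are a description with no test.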

How the data were processed

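RNA of sorted cells was sequenced as SMART-seq2 libraries, 2 per subset, each from a pool of 10 mice, per the labels' protocols. Per the submitters' processing notes, the build was mm10 and the tools were HISAT (0.1.6), SAMtools (1.2), Cufflinks (1.2) and also Cuffdiff. Annotation and strandedness are not stated. The deposited values are Cuffnorm normalized counts (a signal scaled per library, not raw counts) and Cuffnorm FPKM. The authors also deposited Cuffdiff results with group FPKM means, p-values and q-values. The group means were not used here, nor was the log2 fold change column, which held 1321 unreadable cells, so the direction of its calls was read from the deposited FPKM table.

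Rows were analysed as deposited. Those averaging 10 or more normalized counts were tested with limma 3.58.1 in R 4.3.3 (trend and robust empirical Bayes, two-sided, log2(normalized count + 1), Benjamini-Hochberg over 9501 rows, threshold 0.05). A log2 fold change on this scale understates the change of low genes. Both Rn45s rows, the ribosomal RNA precursor, were left out, since they are listed at 0 in B7. Estimated reads are values divided by the step of 1 read in each library, and 91.1% to 92.9% of values came out whole to within 0.05 reads. Such reads are not independent molecules. Each library is a pool, so p-values rest on the spread between pools, which the moderated fit takes partly from other rows.

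Table columns carry a code, the tag SFD and a subset, and no replicate number. Sequences and identities used GENCODE M21 and RefSeq with Biopython 1.88, and tables and figures used Python 3.11.15, pandas 2.3.3, numpy 2.4.6 and matplotlib 3.10.9. As alternatives, the pseudocount was set to 0.25 or 4, the filter was dropped or raised to 50, and the fit was repeated with 2 other scalings, the FPKM table with a pseudocount of 0.1, no trend or robust moderation, each library left out, rows of 1 name summed, the column letter as a term, voom on estimated reads, and the authors' calls. The members and gene lists were chosen with earlier results of these data known. Of the listed genes, 1 in the quiescence and 1 in the B cell list are not reported here, and counts and medians leave them out. All members are named, then up to 4 genes of each list with the smallest p and the 5 rows nearest to the summed pattern; other genes named were chosen after their values were seen.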

Additional observations from a re-analysis of the deposited data

How the results depend on the processing

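Gimap7 was past the threshold under all 16 alternatives, with log2 fold changes of -4.23 to -3.57, and Gimap6 and Gimap4 under 15 of 16, the exception being the fit without trend and robust moderation. Gimap8 passed under 6, Gimap5 under 5, Gimap3 under 2, Gimap9 under 1 and Gimap1 under none, and all 8 main rows stayed below 0 under all 16. With 1 library left out, the second Gimap3 row ran from -3.09 to 2.16, turning to 1.69 without B7 and to 2.16 without B6. The 242 rows called higher and 473 called lower became 117 and 273 without a filter, 112 and 243 in FPKM, and 31 and 181 without trend and robust moderation. Leaving out 1 library gave 23 to 247 higher and 100 to 266 lower, and the column letter as a term gave 425 higher. The number of Gimap rows called lower, 4 as reported, was 1 without trend and robust moderation, 7 with the column letter, which added Gimap9, Gimap5 and Gimap3, and 3 to 5 with 1 library left out, where the lone library is assumed to vary like the others. The causes were not tested. Scaling to equal totals moved the median log2 fold change of all rows to 0.08, against -0.03 as deposited, and the summed Gimap log2 ratio to -0.91. Relative to that median Gimap8 was at -0.79 under all 3 scalings, which says nothing on its stability, since scaling a library shifts all its rows alike. Its call was lost with both other scalings (limma, adjusted p = 0.0506 by median ratio over rows and 0.0761 by equal totals). No paired analysis was possible because columns could not be matched to labelled replicate numbers. What the column letter stands for is not given, so the fit with it is not known to pair the libraries. Its p-values also rest mostly on the spread of other rows, so a pass under it alone adds little. The 13 and 15 reads of Gimap7 in PLZF+ libraries limit the precision of its fold.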
